A study of Mus musculus with 12 samples.

Results

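The genes described are 7 members of the myosin light chain family and its muscle kinase, out of 56162 features in the deposited tables. They were chosen by gene symbol: the slow light chains Myl2 and Myl3, the fast light chains Myl1 and Mylpf, Myl6b, the pseudogene Mylf-ps and the kinase gene Mylk2. RNA was sequenced in 12 libraries of isolated myofibers from male C57BL/6J mice, 3 libraries in each of 4 groups. The groups were type I trained and type I untrained, with type I myofibers from the soleus of endurance-trained and untrained mice, and type IIb trained and type IIb untrained, with type IIb myofibers taken from a fast muscle of the lower leg, the extensor digitorum longus, of trained and untrained mice. The mice carried no engineered allele per the labels, and an age of 8 weeks is given for all groups. Training was treadmill running over 6 weeks, with 5 sessions a week of 60 min at 12 to 16 m/min, and tissue was taken 3 days after the final session. Both muscles were dissociated in collagenase at 37 °C, the soleus for 90 min and the extensor digitorum longus for 60 min, so fibre type, muscle and digestion time cannot be told apart. Each fibre was cut, its type was read from the heavy chain protein in the first piece, and RNA came from the remaining piece. The labels do not state how many fibres entered a library. Separate animals are not named in the labels, so the p-values reflect the spread among these libraries alone, and this may be technical.

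A sarcomeric myosin molecule is a pair of heavy chains, and the lever arm of each head carries an essential and a regulatory light chain. In mouse limb muscle the essential light chain of slow fibres is encoded by Myl3 and that of fast fibres by Myl1, while the regulatory light chain is encoded by Myl2 in slow and by Mylpf in fast fibres. The regulatory chain is phosphorylated by skeletal muscle myosin light chain kinase, the product of Mylk2, which is activated by calcium-bound calmodulin, and phosphate is removed by a phosphatase whose catalytic subunit is encoded by Ppp1cb. Phosphorylation raises force at submaximal calcium and is best known from fast muscle.

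Sequence bears on how far the members can be counted apart, so it is described first. Mylf-ps (ENSMUSG00000113178) is a processed pseudogene with 1 exon on the minus strand of chromosome 12, from 101221997 to 101222417 (mm10, GENCODE M21). Its 421 bases aligned to the longest coding transcript of Myl1 without a gap and matched it at 418 positions. Of the 372 words of 50 bases in the pseudogene, 242 (65.1%) also occur in Myl1 transcripts. A short read from Myl1 can therefore match the pseudogene exactly. The other members are well separated: no word of 25 bases is shared between the coding sequences of any pair of the 5 light chain genes. Identity of the aligned coding bases was 70.3% between the regulatory chains Myl2 and Mylpf, 71.6% between the essential chains Myl1 and Myl3, and 69.7% and 69.2% between Myl6b and each of these essential chains in turn. Across the regulatory and essential classes it was 53.7% to 60.4%.

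Promoters of the light chain genes that differed between fibre types are shown because these genes moved as slow and fast pairs. The 250 bases before the RefSeq start site (GRCm38.p6) are printed in the direction of transcription for Mylpf at chr7:127211358-127211607 (plus strand), Myl1 at chr1:66945057-66945306 (minus strand) and Myl3 at chr9:110763428-110763677 (plus strand). None of these bases lies in a GENCODE M21 exon. Capitals mark matches on either strand to the E-box CAGCTG, bound by the MyoD family, to the MCAT element CATTCC, bound by TEAD factors, and to the CArG box, bound by serum response factor:
Mylpf: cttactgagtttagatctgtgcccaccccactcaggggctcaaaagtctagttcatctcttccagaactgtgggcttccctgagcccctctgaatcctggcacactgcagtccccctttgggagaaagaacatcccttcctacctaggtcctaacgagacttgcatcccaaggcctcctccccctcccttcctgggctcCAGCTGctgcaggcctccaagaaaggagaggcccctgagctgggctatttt
Myl1: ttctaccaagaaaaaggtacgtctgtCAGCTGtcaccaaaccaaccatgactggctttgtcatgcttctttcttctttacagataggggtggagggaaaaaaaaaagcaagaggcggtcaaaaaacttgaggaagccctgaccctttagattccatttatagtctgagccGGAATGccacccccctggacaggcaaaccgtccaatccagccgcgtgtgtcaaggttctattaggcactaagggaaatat
Myl3: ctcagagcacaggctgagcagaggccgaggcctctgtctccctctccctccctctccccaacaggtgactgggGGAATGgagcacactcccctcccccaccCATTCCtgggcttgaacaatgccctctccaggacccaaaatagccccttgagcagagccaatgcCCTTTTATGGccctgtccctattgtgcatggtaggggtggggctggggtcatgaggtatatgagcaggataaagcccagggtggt
The windows of the fast genes Mylpf and Myl1 each hold 1 E-box, whose first base is at -51 and -224 from the start site, and that of Myl1 also holds 1 MCAT element. The window of the slow gene Myl3 holds 2 MCAT elements and 1 CArG box and no such E-box. Of 32851 windows of the same length across the genome, 13.0% hold this E-box, 12.6% this MCAT element and 1.5% a CArG box, and the MEF2 motif, held by 2.9%, is in none of the 3. These are matches of letters and were not tested as binding sites. RefSeq windows were found for 5 of the 7 members, and those of Myl2 are not shown because they lie over 7 kilobases from the nearest GENCODE start. The same E-box is in 1 window of this slow gene, at -130 from its RefSeq start site.

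Library totals ranged from 8026397 to 24995288 counts, and 3636 to 14428 genes had at least 10 counts. The FPKM values used below for levels are read counts that the authors scaled to gene length and library total. Myh7, the slow heavy chain gene that defines type I fibres, made up 80.5% to 99.8% of the counts of the 4 adult limb heavy chain genes (Myh7, Myh2, Myh1, Myh4) in the type I libraries, and Myh4, the type IIb gene, 99.7% to 100.0% in the type IIb libraries, so each library carried the heavy chain gene of its label. Markers of other cells were uneven. The summed level of 8 endothelial genes was 1.03 to 35.9 CPM (counts scaled to the library total) in type I trained, 16.9 to 644 in type I untrained, 0 to 141 in type IIb trained and 0 in all type IIb untrained libraries, where all 8 were at 0. The summed level of 6 fibroblast genes reached 8825 CPM in 1 type I untrained library (replicate 3), and was 115 or less in type I trained, 167 or less in type IIb trained and 0.166 or less in type IIb untrained libraries. The part of these cells in the results was not tested. In bulk material of this kind, a smaller share of muscle RNA and less RNA of a gene per fibre cannot be told apart.

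In type I fibres the light chain message was mainly slow, with a fast remainder, while in type IIb fibres it was almost wholly fast. Between fibre types, 5 of the 6 members that passed the filter on low counts were called, at an adjusted p under 0.05 over 11747 genes. Higher in type I fibres were Myl2 and Myl3, and lower were Myl1, Mylpf and Mylf-ps, whether in trained mice, in untrained mice or in the mean of both. Over all genes tested, 0.238% were called higher and 0.298% lower in trained mice (0.536% in either direction), 0.255% higher and 0.204% lower in untrained mice (0.46%), and 1.11% higher and 0.826% lower in the mean (1.93%). The groups of the 5 called genes did not overlap in any of the 3 comparisons. Over all genes, groups did not overlap for 6.72% in the higher and 3.77% in the lower direction in trained mice, 22.8% and 4.88% in untrained mice and 2.5% and 1.06% in the mean. Mylk2 passed the filter and was not called, and Myl6b did not pass it. The median log2 fold change over all genes was 0.21 in trained and 0.85 in untrained mice, against -3.88 and -3.44 for the 6 members. Of these members 2 were above 0 and 4 below it in each condition, so their median describes no common direction.

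**Figure D1:**
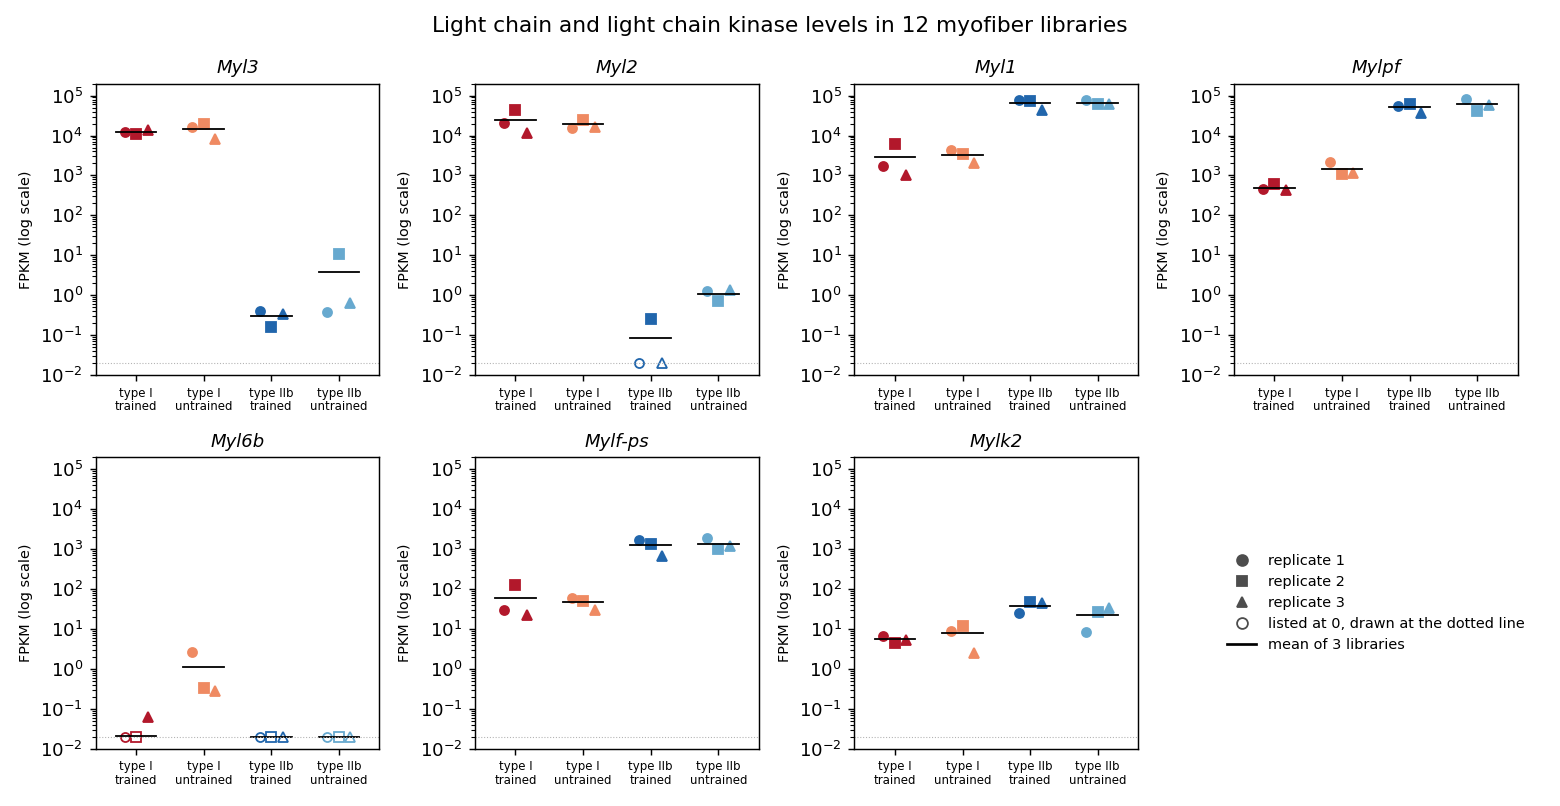
FPKM (log scale) of the 7 genes in each of 12 libraries, with type I trained, type I untrained, type IIb trained and type IIb untrained groups from left to right, symbols for replicates and a line at the mean of 3; open symbols on the dotted line are listed at 0. Myl3 and Myl2 are at 8073 FPKM or more in all type I libraries and at 10.6 FPKM or less in all type IIb libraries, while Myl1, Mylpf and Mylf-ps are high in type IIb and detectable in type I libraries.

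Myl2 (ENSMUSG00000013936, chromosome 5, 122100951 to 122113472, plus strand) encodes the slow regulatory light chain. It had 20739, 42672 and 11841 FPKM in type I trained and 15789, 24984 and 16177 FPKM in type I untrained libraries, against 0, 0.25 and 0 FPKM in type IIb trained and 1.24, 0.695 and 1.33 FPKM in type IIb untrained libraries. The fibre types did not overlap in either condition, and Myl2 ranked between 3 and 7 of all genes by FPKM in the type I libraries. In read counts the type IIb values are 0, 1 and 0 in trained and 6, 5 and 8 in untrained libraries. The type I over type IIb log2 fold change was 18.07 ± 1.20 (SE, adjusted p = 2.16e-07) in trained and 13.61 ± 1.02 (adjusted p = 1.16e-06) in untrained mice, by edgeR's quasi-likelihood test with Benjamini-Hochberg adjustment, which is the test behind every adjusted p here unless another is named. With so few type IIb counts the size of these fits depends on the prior count. Each SE of an edgeR log2 fold change, in the text and figures, is the size of the change divided by the square root of its F statistic. It was derived from the test and not estimated by the fit. Summing the counts of a group and scaling them by the sum of its library sizes, adjusted by trimmed mean of M-values (TMM), gave a type I over type IIb ratio of 276591 in trained mice, against a single count and with a 95% counting interval from 49642 to 10924800, and of 11467 in untrained mice.

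Myl3 (ENSMUSG00000059741, chromosome 9, 110741861 to 110769798, plus strand) encodes the slow essential light chain. It had 12167, 11079 and 13628 FPKM in type I trained and 15995, 19617 and 8073 FPKM in type I untrained libraries, against 0.396, 0.156 and 0.328 FPKM in type IIb trained and 0.387, 10.6 and 0.624 FPKM in type IIb untrained libraries. The fibre types did not overlap, and 1 type IIb untrained library (replicate 2) stood above the other 5 of its fibre type, with 122 counts where those had 1 to 6. Between type I and type IIb fibres the log2 fold change was 14.97 ± 1.69 (SE, adjusted p = 0.00158, edgeR) in trained and 11.34 ± 1.49 (adjusted p = 0.00651) in untrained mice. The call in untrained mice was lost in 7 of 12 fits that each left out 1 library, with an adjusted p up to 0.0784, and kept in those without type IIb untrained replicates 1 and 2, type I trained replicate 3, and type IIb trained replicates 1 and 3. In trained mice it was lost without type IIb trained replicate 2 (adjusted p = 0.107).

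Myl1 (ENSMUSG00000061816, chromosome 1, 66924295 to 66945404, minus strand) encodes the fast essential light chain. It had 1745, 6023 and 999 FPKM in type I trained and 4341, 3350 and 2055 FPKM in type I untrained libraries, against 77045, 73046 and 43309 FPKM in type IIb trained and 77445, 63361 and 60773 FPKM in type IIb untrained libraries. All type I libraries were below all type IIb libraries, and Myl1 was measured there at 1.55% to 9.34% of the mean type IIb FPKM. The highest of these was type I trained replicate 2. On the log2 scale, type I differed from type IIb fibres by -4.65 ± 0.79 (SE, adjusted p = 0.0261, edgeR) in trained and -4.88 ± 0.80 (adjusted p = 0.0242) in untrained mice. Each call was lost in 9 of the 12 fits that left out 1 library and kept without type I trained replicate 2, type I trained replicate 3 or type IIb untrained replicate 1, with an adjusted p up to 0.497 in trained and 0.380 in untrained mice. Without the 3 libraries highest in endothelial markers the adjusted p was 0.422 in trained and 0.868 in untrained mice. The mean over both conditions, -4.76 ± 0.56 (adjusted p = 0.00105), kept its call in all 12 fits without 1 library, with an adjusted p up to 0.0389. Among the 12 other alternatives, the call in the mean was lost in 2.

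Mylpf (ENSMUSG00000030672, chromosome 7, 127208890 to 127214298, plus strand) encodes the fast regulatory light chain. It had 464, 595 and 420 FPKM in type I trained and 2233, 1063 and 1146 FPKM in type I untrained libraries, against 53436, 62449 and 37200 FPKM in type IIb trained and 81135, 42105 and 58542 FPKM in type IIb untrained libraries. The fibre types did not overlap, and in type I fibres Mylpf was at 0.823% to 3.68% of the mean type IIb FPKM. By FPKM it was among the first 3 genes in every type IIb library and ranked between 53 and 291 in the type I libraries. The fitted log2 difference, type I minus type IIb, was -7.02 ± 0.48 (SE, adjusted p = 1.21e-07, edgeR) in trained and -5.90 ± 0.45 (adjusted p = 9.74e-07) in untrained mice. These were the smallest adjusted p-values of the members in both conditions, and they reached at most 3.67e-05 in all fits that left out 1 library. In each condition, and also in the mean of both, the call was lost in 1 of the other alternatives. In trained mice this was limma-voom with quality weights (adjusted p = 0.985).

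Both fast light chain genes remained measurable in type I fibres, but not in the same proportion to type IIb fibres. The ratio of Mylpf to Myl1, both in FPKM, was 0.266, 0.0988 and 0.420 in type I trained and 0.514, 0.317 and 0.558 in type I untrained libraries, against 0.694, 0.855 and 0.859 in type IIb trained and 1.05, 0.665 and 0.963 in type IIb untrained libraries. All 6 type I values lay below all 6 type IIb values. Type I fibres had a mean of 0.362 ± 0.171 and type IIb fibres one of 0.847 ± 0.149 (SD, n = 6 each; two-sided exact permutation test within training condition, p = 0.005, the smallest it allows; adjusted p = 0.009 over 9 such measures). The heavy chain of type IIb fibres did not share this remainder: Myh4 had 13, 7 and 30 counts in type I trained and 4, 0 and 19 counts in type I untrained libraries, at most 0.00442% of its mean type IIb FPKM. Myh2, the type IIa heavy chain gene, was 0% to 0.126% of heavy chain counts in type I trained and 0.863% to 10.5% in type I untrained libraries, and Myh1, the type IIx gene, 0% to 8.04% and 0.380% to 8.92% in the same groups. The 10.5% and 8.92% were both in type I untrained replicate 1, which also had the highest Mylpf relative to type IIb fibres (3.68%). The 8.04% was in type I trained replicate 2, which had the highest Myl1 (9.34%). The part of other fast fibre types in the fast remainder was not tested.

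Slow and fast isoforms were also compared within a library, as the slow gene's share of the FPKM of its pair. For the regulatory chain, the share of Myl2 was 97.8%, 98.6% and 96.6% in type I trained and 87.6%, 95.9% and 93.4% in type I untrained libraries, against 0%, 0.0004% and 0% in type IIb trained and 0.00153%, 0.00165% and 0.00227% in type IIb untrained libraries. In type I fibres all trained libraries were above all untrained ones, and in type IIb fibres all trained libraries were below all untrained ones, at a level of a few counts. The exact 95% binomial (Clopper-Pearson) interval of the share of counts was 98.0% to 98.2% in the first type I trained library and 88.9% to 89.2% in the first type I untrained library, covering counting error only. In the 2 type IIb trained libraries with a count of 0, the limit of 3 counts is a share of 0.00136% and 0.00122% of counts, and the exact interval ends at 0.00168% and 0.00149%.

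For the essential chain, the share of Myl3 was 87.5%, 64.8% and 93.2% in type I trained and 78.7%, 85.4% and 79.7% in type I untrained libraries, and at most 0.000757% in type IIb trained and 0.0167% in type IIb untrained libraries. The trained and untrained type I libraries overlapped, with 1 trained library (replicate 2) the lowest of all 6. Its slow regulatory share was the highest of all 6. The mean essential share was 81.8% ± 15.0 in trained and 81.3% ± 3.64 in untrained type I fibres (SD, n = 3 each). The fibre types differed for both shares at the smallest p that 3 against 3 libraries allow in each condition (exact permutation test, p = 0.1) and over both conditions (p = 0.005, adjusted p = 0.009 over 9 measures).

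**Figure D2:**
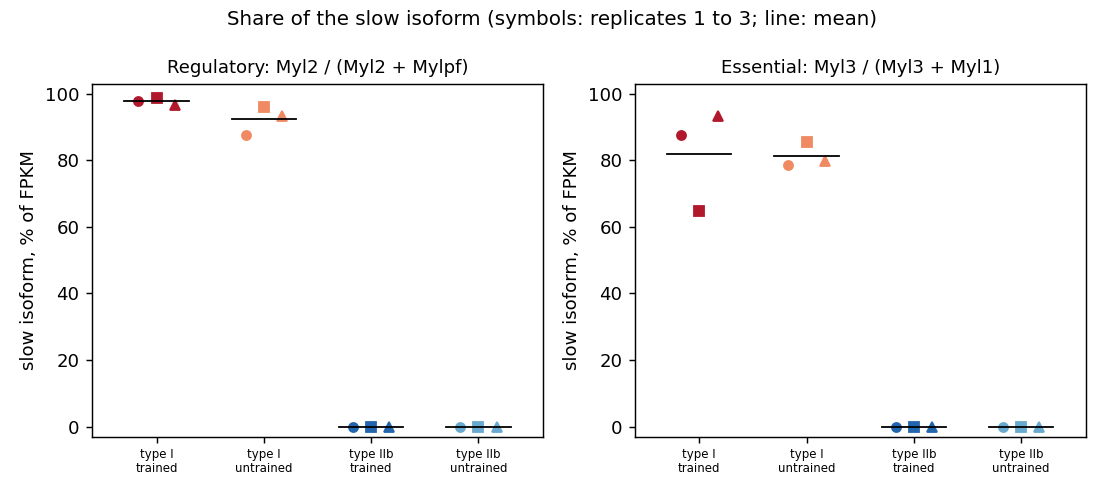
Slow isoform as a percentage of the FPKM of its light chain pair in each library (left: Myl2 of Myl2 and Mylpf; right: Myl3 of Myl3 and Myl1), by group from type I trained to type IIb untrained, with a line at the mean of 3. The type I regulatory shares are 96.6% to 98.6% in trained and 87.6% to 95.9% in untrained libraries, the essential shares spread from 64.8% to 93.2%, and all type IIb shares are near 0.

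The pairs were also summed. The essential light chain FPKM (Myl3 and Myl1) was 15214 ± 1674 in type I trained and 17810 ± 6782 in type I untrained fibres, against 64467 ± 18432 in type IIb trained and 67197 ± 8970 in type IIb untrained fibres (SD, n = 3 each). All type I libraries lay below all type IIb libraries (exact permutation test within condition, p = 0.005, adjusted p = 0.009). The regulatory sum (Myl2 and Mylpf) was 25577 ± 15959 in type I trained and 20464 ± 4848 in type I untrained fibres, against 51029 ± 12796 in type IIb trained and 60595 ± 19596 in type IIb untrained fibres. Here 1 type I trained library, replicate 2 at 43267, was within the type IIb range (exact permutation p = 0.01, adjusted p = 0.015). The 4 genes together took 1.64% to 3.45% of all counts in type I and 4.59% to 8.84% in type IIb libraries. The ratio of the regulatory to the essential sum did not pass the test between fibre types (1.44 ± 0.637 in type I, 0.847 ± 0.149 in type IIb; SD, n = 6 each; exact permutation p = 0.06).

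Training changed no member past the threshold in either fibre type among the genes that passed the count filter, where edgeR called 0% of all genes in both. Without the filter edgeR called 1 member, Myl3, as lower in trained type IIb fibres, where it called 6 of 28696 genes higher and 3 lower. DESeq2 called 0 members, with 0.502% of all genes called in type I and 3.1% in type IIb fibres. Voom with quality weights, from limma, also called 0 members, with 0.0341% and 0.00851% of genes in the same fibre types, and limma-trend on FPKM called 0 members and 0% of genes. At an unadjusted p under 0.05, 2.94% of all genes stood out for training in type I and 8.21% in type IIb fibres, and these included Mylpf in type I and Myl2 and Myl3 in type IIb fibres. The difference between the training effects of the fibre types also called 0 members and 0% of all genes, with 8.94% at an unadjusted p under 0.05. The median log2 fold change for training over all genes came to -0.28 in type I fibres and to 0.36 in type IIb fibres.

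In type I fibres the member with the smallest p for training was Mylpf. Its level, scaled by TMM, was 242, 307 and 112 CPM in trained and 679, 433 and 329 CPM in untrained libraries, and the groups did not overlap, as for 8.93% of all genes in this direction. The log2 fold change was -1.12 ± 0.37 (SE, unadjusted p = 0.00718, adjusted p = 1, edgeR), and it stayed between -1.43 and -0.82 in fits without 1 library. The other fast genes were not called either: Myl1 had 0.39 ± 0.68 and Mylf-ps 0.84 ± 0.72 (log2 fold change ± SE, both adjusted p = 1). For the slow genes the log2 fold change was 0.87 ± 0.62 for Myl2 and 0.05 ± 0.96 for Myl3, and for the kinase gene Mylk2 it was -0.20 ± 1.09. Relative to the regulatory pair, the slow share was 97.7% ± 1.03 in trained and 92.3% ± 4.26 in untrained type I fibres (SD, n = 3 each). This difference of 5.37 percentage points came with no overlap and an exact permutation p of 0.1, the smallest these groups allow (adjusted p = 0.225 over 36 comparisons). Without the 3 libraries highest in endothelial markers, 2 of which were untrained type I libraries, it was 1.75 percentage points with 1 untrained type I library left.

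In type IIb fibres the slow genes were near the limit of counting. Myl2 had 0, 1 and 0 counts in trained and 6, 5 and 8 counts in untrained libraries. These groups did not overlap, as for 1.92% of all genes in this direction, and the ratio of trained to untrained counts, summed over libraries and scaled in the same way, was 0.0631 with a counting interval from 0.00152 to 0.397. The log2 fold change was -3.59 ± 0.94 (SE, unadjusted p = 0.00144, adjusted p = 0.597, edgeR). Myl3 had 3, 1 and 4 counts in trained and 3, 122 and 6 counts in untrained libraries, a log2 fold change of -3.58 ± 1.15 (adjusted p = 0.597) that rests on the single library with 122. The fast genes had log2 fold changes near 0 in type IIb fibres: -0.01 ± 0.37 for Mylpf, 0.16 ± 0.68 for Myl1 and 0.11 ± 0.72 for Mylf-ps.

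**Figure D3:**
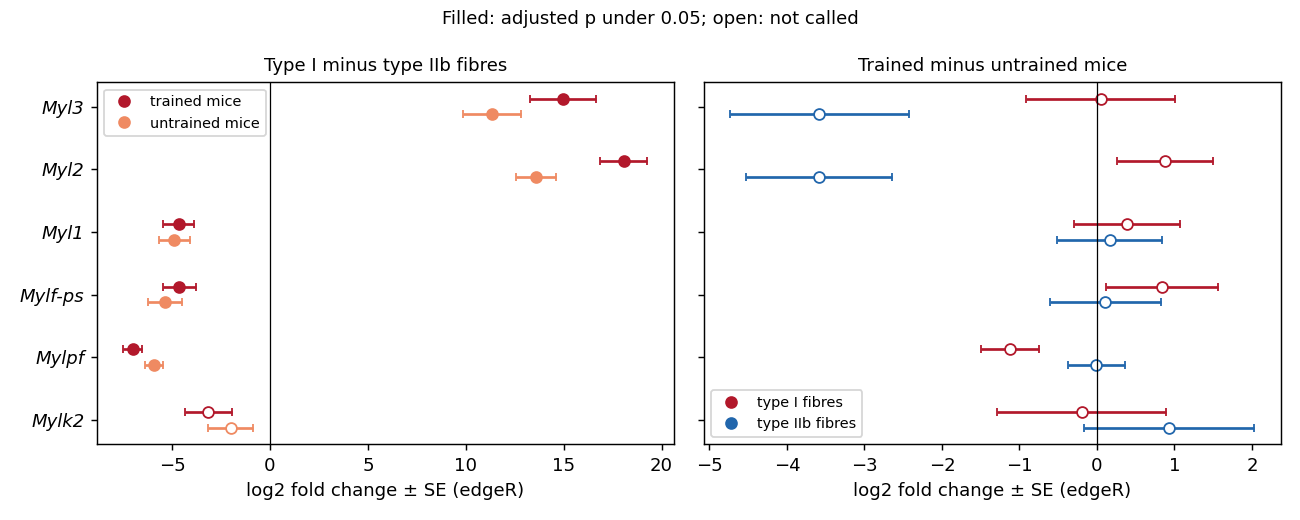
Log2 fold change ± SE of the 6 members that passed the count filter, for type I over type IIb fibres in trained and untrained mice (left) and for trained over untrained mice in each fibre type (right), 3 libraries per group; filled symbols have an adjusted p under 0.05. Myl3 and Myl2 lie at 11.34 to 18.07 and Myl1, Mylf-ps and Mylpf at -7.02 to -4.63 on the left, and no symbol is filled on the right.

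Myl6b (ENSMUSG00000039824, chromosome 10, 128494157 to 128498685, minus strand) encodes an essential light chain known from slow muscle and nonmuscle cells. It had 0, 0 and 1 counts in type I trained and 35, 5 and 8 counts in type I untrained libraries, and 0 counts in all 6 type IIb libraries. Its counts therefore lay in type I fibres, nearly all in the untrained group. Per length it was far below Myl3 and Myl1, at 2.63, 0.336 and 0.282 FPKM in type I untrained libraries and at most 0.0633 FPKM in type I trained libraries. It was not tested, since it did not pass the filter. The library with 35 counts (type I untrained replicate 1) was also the highest in endothelial markers, at 644 CPM.

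Mylf-ps, the pseudogene, had a pattern close to that of Myl1. It had 29.4, 124 and 21.8 FPKM in type I trained and 60.6, 50.5 and 29.6 FPKM in type I untrained libraries, against 1747, 1351 and 670 FPKM in type IIb trained and 1919, 1002 and 1189 FPKM in type IIb untrained libraries. The fibre types did not overlap. The edgeR log2 fold change between fibre types (type I minus type IIb) was -4.63 ± 0.83 (SE, adjusted p = 0.00833, edgeR) in trained and -5.36 ± 0.86 (adjusted p = 0.00384) in untrained mice, and in trained mice the call was lost without type I trained replicate 1 (adjusted p = 0.0608). Counts of Mylf-ps were 1.03%, 1.26% and 1.34% of Myl1 counts in type I trained and 0.855%, 0.923% and 0.884% in type I untrained libraries, against 1.39%, 1.13% and 0.948% in type IIb trained and 1.52%, 0.969% and 1.20% in type IIb untrained libraries. The percentage stayed near 1 in all libraries while Myl1 counts ran from 9549 to 627187. Over both conditions its mean did not differ past the threshold between fibre types (1.05% ± 0.205 in type I, 1.19% ± 0.227 in type IIb, SD, n = 6 each, exact permutation p = 0.275). All type I untrained values lay below all type I trained and all type IIb untrained values. Each of these comparisons had an exact permutation p of 0.1, the smallest possible (adjusted p = 0.225). Within fibre types, log2(CPM + 1) of the 2 genes had r = 0.95 over the 6 type I and 0.95 over the 6 type IIb libraries, a description of genes that share sequence and libraries. With so much shared sequence, counts of this pseudogene and of Myl1 are uncertain to this extent, and whether the pseudogene is itself transcribed was not tested.

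**Figure D4:**
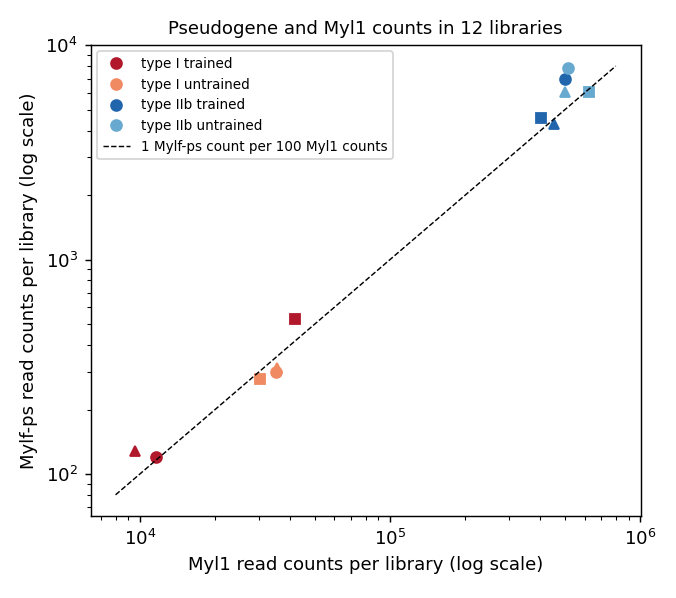
Read counts of Mylf-ps against those of Myl1 (log scales), 1 symbol per library, coloured by group; the dashed line marks 1 Mylf-ps count per 100 Myl1 counts. The 12 libraries lie near the line, at 0.855% to 1.52%, with all type I libraries at the lower left and all type IIb libraries at the upper right.

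Mylk2 (ENSMUSG00000027470, chromosome 2, 152911352 to 152923068, plus strand) encodes the skeletal muscle light chain kinase, and it did not differ between fibre types past the threshold. It had 6.64, 4.49 and 5.23 FPKM in type I trained and 8.90, 11.7 and 2.56 FPKM in type I untrained libraries, against 24.7, 46.2 and 43.9 FPKM in type IIb trained and 8.34, 26.4 and 33.6 FPKM in type IIb untrained libraries. In trained mice the fibre types did not overlap, as for 3.77% of all genes in this direction. In untrained mice they overlapped through 1 type IIb library (replicate 1), which was among the 2 libraries with the fewest detected genes. For type I minus type IIb, the log2 fold change was -3.14 ± 1.18 (SE, adjusted p = 0.575, edgeR) in trained mice, -2.01 ± 1.13 (adjusted p = 0.419) in untrained mice and -2.58 ± 0.82 (adjusted p = 0.097) in the mean of both. DESeq2 gave an adjusted p of 0.0413 in trained mice, where it called 2.95% of all genes, and 0.00599 in the mean, where it called 9.18%. EdgeR without the 2 libraries of fewest genes gave 0.0348 in the mean, where it called 130 of 13433 genes higher and 102 lower. Counting these, Mylk2 was called lower in type I fibres in 3 of 24 alternatives in the mean, and in 1 of 25 in untrained mice. Per 1000 FPKM of regulatory light chain, Mylk2 had 0.323 ± 0.164 FPKM in type I and 0.614 ± 0.353 FPKM in type IIb fibres (SD, n = 6 each; exact permutation p = 0.09, adjusted p = 0.101 over 9 measures).

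The genes around the kinase were described from a list of 8 that act on light chain phosphorylation, all of which passed the filter. In the mean over both conditions 2 were lower in type I fibres (Mylk4 and Calm3), 0 were higher and 6 were not called, against 0.826% of all genes called lower and 1.11% called higher. The list's median log2 fold change was 0.72, with 4 genes above 0 and 4 below it, against a median of 0.60 over all genes. In the separate conditions 0 of the 8 were called. Mylk4, a kinase of the same family, had 160, 18.5 and 0.177 CPM in type I trained and 20.3, 10.0 and 1.96 CPM in type I untrained libraries, against 733, 1067 and 1189 CPM in type IIb trained and 588, 1296 and 474 CPM in type IIb untrained libraries. No type I library reached the type IIb range, and the log2 fold change was -5.13 ± 1.12 (SE, adjusted p = 0.0398, edgeR). In FPKM, Mylk4 exceeded Mylk2 in every type IIb library, at 135 to 355 against 8.34 to 46.2.

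Calm3 encodes calmodulin, the calcium sensor of the kinase. It had 5.33, 21.35 and 17.03 CPM in type I trained and 25.4, 30.9 and 30.9 CPM in type I untrained libraries, against 65.2, 158 and 126 CPM in type IIb trained and 335, 122 and 78.2 CPM in type IIb untrained libraries. The fibre types did not overlap, and the log2 fold change was -2.81 ± 0.71 (SE, adjusted p = 0.0472, edgeR). Calm2 had -0.34 ± 0.46 and Ppp1cb -0.69 ± 0.34, and neither was called. The kinase genes Mylk, of smooth muscle and nonmuscle cells, and Mylk3, of the heart, were at 0 to 49.8 CPM and 0 to 2.30 CPM in the 12 libraries, and the regulatory phosphatase subunits Ppp1r12a and Ppp1r12b were not called.

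**Figure D5:**
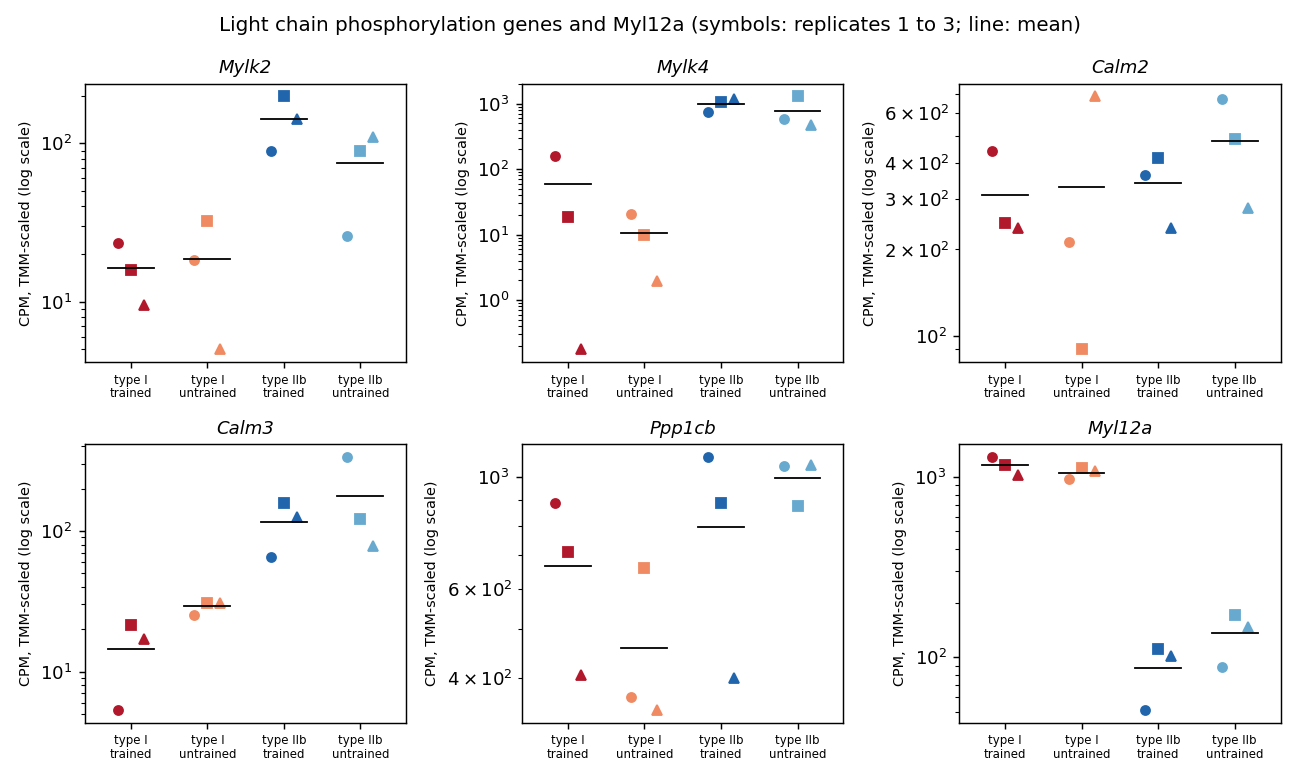
TMM-scaled CPM (log scale) of Mylk2, 4 other genes of the phosphorylation list and Myl12a in each library, from type I trained to type IIb untrained, with a line at the mean of 3. Mylk4 and Calm3 are lower in all type I than in all type IIb libraries, and Myl12a is higher, at 982 to 1293 CPM against 51.1 to 172 CPM.

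Of 7 further myosin II light chain genes, 5 passed the filter, and 1 was called, as higher in type I fibres, in trained mice, untrained mice and the mean alike, while 0 were called lower. Over all genes tested, 0.238%, 0.255% and 1.11% were called higher in these comparisons, and 0.298%, 0.204% and 0.826% lower. The called gene was Myl12a, which encodes a regulatory light chain of nonmuscle myosin. It had 1137, 1039 and 1755 FPKM in type I trained and 1480, 1264 and 1722 FPKM in type I untrained libraries, against 44.2, 80.6 and 97.5 FPKM in type IIb trained and 89.6, 157 and 140 FPKM in type IIb untrained libraries. Type I libraries were high without exception and close to each other. The log2 fold change was 3.73 ± 0.50 (SE, adjusted p = 0.000359, edgeR) in trained and 2.96 ± 0.48 (adjusted p = 0.00422) in untrained mice. Its FPKM in type I trained libraries was above that of Mylpf (420 to 595), a sarcomeric regulatory chain. The summed level of 8 smooth muscle and mural cell genes was 16.7 to 59.4 CPM in type I trained and 32.4 to 1085 CPM in type I untrained libraries, against 0 to 128 CPM in type IIb trained and 0 to 0.083 CPM in type IIb untrained libraries, and 3 to 8 of the 8 were detected in type I and 0 to 5 in type IIb libraries. The part of such cells in the level of Myl12a was not tested. The nonmuscle essential chain gene Myl6 was not called (0.71 ± 0.76 in the mean), and neither was the smooth muscle gene Myl9, which had 0 counts in all type I trained libraries and 138, 0 and 4948 counts in type I untrained libraries, against 2, 254 and 156 counts in type IIb trained and 72, 57 and 260 counts in type IIb untrained libraries. Myl7, the atrial regulatory chain gene, had 0 counts throughout.

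Heavy chain genes also differed between fibre types. Of a list of 8, 7 passed the filter. In the mean of both conditions 3 of these were called higher in type I fibres and 1 lower, against 1.11% and 0.826% of all genes. In both conditions type I fibres had more Myh7 and less Myh4, at log2 fold changes of 13.99 ± 1.30 and -15.60 ± 1.30 in trained mice (SE, adjusted p = 9.38e-06 and 0.00013, edgeR). Light chain FPKM exceeded heavy chain FPKM in every library, with a ratio of the 4 light to the 4 heavy chain genes of 73.2, 955 and 63.5 in type I trained and 149, 193 and 163 in type I untrained libraries, against 35.1, 11.5 and 8.90 in type IIb trained and 34.8, 13.1 and 28.4 in type IIb untrained libraries. All type I ratios lay above all type IIb ratios (exact permutation test within condition, p = 0.005, adjusted p = 0.009). The library at 955, type I trained replicate 2, had 1399 Myh7 counts where the other type I trained libraries had 10603 and 13440. Heavy chain transcripts are much longer than light chain transcripts, and the part of coverage along the transcript in this ratio was not tested.

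The genes whose log2(CPM + 1) was most like each member over the 12 libraries were picked by Pearson's r among the genes tested, and since the fibre types lie far apart, r over all 12 mostly reflects that gap. For Myl2 the first was Myoz2, a Z-disc protein gene of slow fibres (r = 0.998), with r = 0.68 within the 6 type I libraries. For Myl3 it was Tnni1, the slow troponin I gene (r = 0.991), with r = -0.22 within type I libraries. For Mylpf it was Pvalb, the gene of the calcium buffer parvalbumin (r = 0.991), with r = 0.88 within type I and 0.63 within type IIb libraries. For Myl1 and Mylf-ps it was Ddit4l, an inhibitor of mTOR signalling (r = 0.982 and 0.973), and for Mylk2 the predicted gene Gm10359 (r = 0.951). Within type I libraries the members did not all vary together: r was 0.75 between Myl2 and Myl1, -0.01 between Myl2 and Myl3, and 0.97 between Mylk2 and Myl3, each over 6 libraries that share these genes' scaling.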

How the data were processed

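Per the labels' protocols, cDNA of mouse myofibers was made and amplified by SMART-Seq HT and turned into 12 libraries by Nextera XT, so strand is not marked. The deposited count table gives raw read counts, as whole numbers and without normalization. The authors also deposited FPKM values, which are counts scaled to gene length and library total. Per the submitters' processing notes, TopHat2 was used with the build mm10; for the aligner version, the counting program and the annotation, the sources used here give nothing. The gene lengths behind FPKM are shorter than the longest coding transcripts for the 4 main light chains (433 against 766 bases for Mylpf, 499 against 889 for Myl2), so light chain FPKM may be raised. Myl2 and Myl3 overlap genes on the other strand, whose reads cannot be told apart from theirs.

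The members, lists and tests were chosen with earlier results of these data known. Samples were grouped by their titles. Genes were filtered with edgeR's filterByExpr (minimum count 10, minimum total 15), which left 11747, and tested with edgeR 4.0.16 (R 4.3.3), robust quasi-likelihood F-test, TMM scaling, 1 fit over 4 groups, 6 contrasts, Benjamini-Hochberg adjustment over all genes tested. Ratios of FPKM were compared with two-sided exact permutation tests, which cannot go below p = 0.1 with 3 against 3 libraries; p-values were adjusted over the 36 comparisons of 2 groups and over the 9 pooled ones. Ratios against groups of 1 to 3 counts carry 95% counting intervals, and 3 counts served as the floor for a count of 0. One count was worth 0.04 to 0.125 CPM. Without molecular identifiers, these intervals and floors cover only counting error. Alternatives were RLE scaling, no count filter, DESeq2 1.42.0, limma 3.58.1 (voom with quality weights; trend on log2(FPKM + 1) and log2(FPKM + 0.1)), edgeR without the robust prior, only the groups compared, the replicate block, and leaving out each library. After seeing the data, fits without the 3 libraries highest in endothelial markers or the 2 with fewest genes, Mylf-ps counts added to Myl1, and shares per longest coding transcript were added. Named genes are all 7 members, genes from the lists, and the most similar gene of each member. Not every list gene that was called or passed the filter is named. Of the phosphorylation list, 1 gene is not reported here, and the list's counts and median are over the other 8. The edgeR test was also run on simulated counts with known fold changes, and the outcome is not used here.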

Additional observations from a re-analysis of the deposited data

Results flagged for a closer look

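The slow share of the regulatory light chain, Myl2 FPKM over Myl2 and Mylpf FPKM, was looked at again because trained and untrained libraries did not overlap in either fibre type. All trained libraries were above all untrained ones in type I fibres and below them in type IIb fibres. The mean difference of trained minus untrained was 5.366 percentage points in type I and -0.001684 percentage points in type IIb fibres. The type IIb difference rests on 1 count of Myl2 in 3 trained libraries and 19 in 3 untrained libraries. In type I fibres Myl2 averaged 25084 ± 15868 FPKM in trained and 18983 ± 5200.1 FPKM in untrained libraries, and Mylpf 493 ± 91.2 FPKM in trained and 1480 ± 653 FPKM in untrained libraries (SD, n = 3 each). No p is given for the difference between these share effects, because the separation that singled out this share fixes a permutation p at the smallest value it can take. In the fit across all genes, the difference of the training effects (log2, type I minus type IIb) was 4.46 ± 1.13 for Myl2 and -1.11 ± 0.52 for Mylpf (SE, n = 3 libraries per group, adjusted p = 0.418 and 0.544, edgeR), and neither was called. Groups of 3 libraries are too small for a test of single outlying libraries.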

How the results depend on the processing

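The 5 calls between fibre types (Myl2 and Myl3 higher, Myl1, Mylpf and Mylf-ps lower) kept their direction in every alternative run. In the mean of both conditions 2 members were called higher and 3 lower in all fits that left out 1 library. These fits gave 1 to 2 higher and 2 to 3 lower in untrained mice, and 1 to 2 higher and 1 to 3 lower in trained mice. Of the 12437 to 13459 genes tested, they called 66 to 126 higher and 53 to 94 lower in the mean. The ranges were 14 to 39 and 8 to 30 in untrained mice, and 13 to 40 and 16 to 37 in trained mice. With limma-voom and quality weights, 0 members were called higher in trained mice, in untrained mice and in the mean, and 1 lower in trained mice. Myl2 and Myl3 thus lost their calls in all of these (adjusted p = 0.730 for Myl2 in the mean). Mylpf lost its call in trained mice (adjusted p = 0.985). Across the alternatives, Mylpf also lost its call in untrained mice and in the mean, in 1 alternative each. Over all 11747 genes voom called 126 higher and 50 lower in trained mice, 1868 and 238 in untrained mice and 914 and 207 in the mean. Without the 3 libraries highest in endothelial markers, which left 1 type I untrained library, calls of members were lost in each fibre type comparison. Fewer samples were fitted here. Otherwise the cause of lost calls was not tested. Without the filter on low counts, Myl3 was called lower with training in type IIb fibres (1 member) and Myl2 and Myl3 higher in the difference of the training effects (2 members), on the low type IIb counts given above; of 28696 genes, 6 were called higher and 3 lower in the first and 4 higher and 22 lower in the second.

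Whether replicate numbers pair libraries was not settled by correlations of their deviations. Correlations of same-numbered libraries ran from -0.126 to 0.177, and 4 of 18 were over 0.1. Those of libraries with different numbers ran from -0.174 to 0.189, and 2 of 36 were over 0.1. Of 36 best matches, 12 had their own number. With the replicate block, 2 members were again called higher and 3 lower in each fibre type comparison and 0 for training. Of 11747 genes, this fit called 21 higher and 21 lower in untrained mice, 16 and 25 in trained mice, 72 and 66 in the mean, and 0 for training.

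Changes with training that had no call also turned sign in places. In type I fibres, Myl1 was at -0.61 with voom and -0.50 in each of the 3 limma-trend fits on FPKM. Myl2 was at -0.49 and Mylk2 at 0.27 with voom. Myl3 was at -0.23 with RLE factors and with DESeq2, -0.0084 without a filter, -0.15 in the 3 limma-trend fits and -0.61 without the endothelial-high libraries. Mylf-ps was at -0.055 with a pseudocount of 1 (with and without a filter) and -0.063 with 0.1. In type IIb fibres, Myl1 was at -0.014 with the replicate block and -0.097 in the 3 limma-trend fits, Mylf-ps at -0.14 with the block, -0.18 in the 3 limma-trend fits, and Mylpf at 0.13 without the endothelial-high libraries and 0.19 without the 2 libraries of fewest genes. Leaving out 1 library gave ranges across 0 in type I fibres for Myl1 (-0.89 to 0.85), Myl3 (-0.31 to 0.55), Mylf-ps (-0.58 to 1.29) and Mylk2 (-0.66 to 0.48), and in type IIb fibres for Myl1 (-0.066 to 0.41), Mylpf (-0.32 to 0.21) and Mylf-ps (-0.15 to 0.42). The median over all genes for training in type I fibres was -0.28 with TMM and -0.57 with RLE scaling.
Slow shares kept their direction, apart from the essential share for training in type I fibres. Without the endothelial-high libraries, the regulatory share was 1.75 percentage points higher with training in type I fibres and 95.9 points higher in type I than type IIb untrained fibres, and the essential shares of these comparisons differed by -3.61 and 85.4 points; per length of the longest coding transcript, the essential share differed by 85.3 points between untrained type I and type IIb fibres. Leaving out 1 library gave 3.02 to 7.17 points for the regulatory and -5.14 to 9.06 points for the essential share with training in type I fibres.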
